A study of Mus musculus with 18 samples.

Results

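The 10 genes described here are the 4 members of the FOS family (Fos, Fosb, Fosl1 and Fosl2), the 3 members of the JUN family (Jun, Junb and Jund) and 3 early response genes (Egr1, Ier3 and Gem). They were taken by symbol from the 78239 genes of the count tables. All 10 were counted in both experiments. In the retina 9 passed the filter on low counts, with Fosl1 left out, and in the cells all 10 passed.

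FOS and JUN proteins are leucine zipper proteins that pair to form the transcription factor AP-1, which binds a short palindromic DNA site. FOS proteins need a JUN partner to bind DNA, while JUN proteins can also pair with each other, and the makeup of the pair sets how strongly a target is driven. Fos, Jun and Egr1 are classic immediate early genes, which are transcribed within minutes of a growth signal, depolarization, light or injury, from transcription factors already present in the cell and under the control of MAP kinases, and whose RNA is short-lived. Fosl1 and Fosl2 usually follow later and last longer. HIF1 is the transcription factor that cells use to respond to low oxygen.

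Retinas came from mice injected under the retina in the fifth postnatal week with AAV::nsHif1a or AAV::eGFP, 5 libraries each, and were taken 3 wpi (weeks post injection). nsHif1a encodes a mouse HIF1A with amino acid exchanges that keep it stable and active in normal oxygen, and in the virus a rod-specific mouse opsin promoter drives it, so rods of the transduced area alone should carry it while the RNA is that of the whole retina. The labels give the mice as C57BL/6J and the methods of the study as wild-type 129S6, and both groups received a virus. 661W cells, a line from a mouse retinoblastoma with photoreceptor-like features, were kept in normoxia and received plasmids in which the CMV promoter drives either nsHif1a or eGFP, and were harvested 20 h later, 4 libraries each. The labels do not say whether the cell libraries are separate cultures, so p-values there measure the spread between these libraries, which may be technical.

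Libraries held between 12898220 and 17809585 counts. The 6 HIF targets used to check the labels were all past the test in both experiments, and their summed level in the retina was 701 to 728 CPM with AAV::eGFP and 998 to 1549 CPM with AAV::nsHif1a, where CPM is a count scaled to the TMM-adjusted library size. Hif1a RNA itself was at 638 to 698 CPM with AAV::eGFP and at 642 to 729 CPM with AAV::nsHif1a in the retina, with overlapping groups, and at 150 to 164 and 1222 to 1954 CPM in the cells. All AAV::nsHif1a retinas and AAV::eGFP replicates 1 and 2 carried counts of Xist, the RNA of the inactive X chromosome, whereas AAV::eGFP replicates 3, 4 and 5 carried counts of Y chromosome genes in its place. Retinal results of the members tested, and of Atf3, Maff, Gadd45b and Lif, are therefore also given within the 7 libraries with Xist counts. Those of the markers and of the other genes named are not. The 8 rod markers were all lower with AAV::nsHif1a (3 of them past the test), the 8 microglia and macrophage markers were all higher with none past the test, and the 6 lens markers were all higher with none past the test. Of the 6 endothelial markers 5 were higher, and Kdr passed the test (log2FC 0.26, adjusted p-value 0.049 from limma). Flt1 was lower (log2FC -0.21, adjusted p-value 0.085). Of the cone, Müller glia, and bipolar and amacrine markers, Slc1a3 of the Müller glia was higher (log2FC 0.21, adjusted p-value 0.030). Opn1mw of the cones (-0.27, 0.023) and Prkca of the bipolar and amacrine set (-0.18, 0.015) were lower. The others of these lists did not pass. The 661W libraries had almost no photoreceptor RNA, with summed levels of 5.10 to 9.85 CPM for the 8 rod markers and 1.10 to 1.94 CPM for the 6 cone markers, so the photoreceptor-like label is not borne out by these markers.

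The mix of family members differed between retina and cells already in the eGFP groups. Per kilobase of exon, Fos made up 84.4% ± 5.61 (SD, n = 5) of FOS family RNA in the AAV::eGFP retina and Fosl2 11.7% ± 4.11, whereas in eGFP-transfected 661W cells Fosl1 alone made up 93.1% ± 0.793 (SD, n = 4). These shares depend on the lengths used (2358 bases for Fos, 10397 for Fosl2). The lengths join all annotated exons of a gene, while reads were counted on a basic annotation. Without the length, mean levels in the AAV::eGFP retina were 24.3 CPM for Fos and 11.8 CPM for Fosl2. In the JUN family, Jund led in the retina with 67.9% ± 3.25, and Junb led in the cells with 48.1% ± 0.879. On the same scale of CPM per kilobase, set over all 18 libraries, the level order in the AAV::eGFP retina ran from Jund (51.7 ± 4.03), Ier3 (26.5 ± 2.93) and Jun (14.9 ± 1.17) down to Fosl2 (1.17 ± 0.238), Fosb (0.304 ± 0.0247) and Fosl1 (0.0669 ± 0.0589). Fos, Gem, Junb and Egr1 lay between, with means of 9.44 to 10.6, and did not differ from each other beyond their spread. In the eGFP cells the order ran from Fosl1 (100.2 ± 16.1), Junb (59.9 ± 3.83) and Ier3 (59.8 ± 5.06), the last 2 of which overlapped, through Jund (40.5 ± 1.06) and Jun (24.1 ± 4.08) to Fosl2 (5.63 ± 0.309), Fos (1.39 ± 0.126) and Fosb (0.348 ± 0.106).

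**Figure D1:**
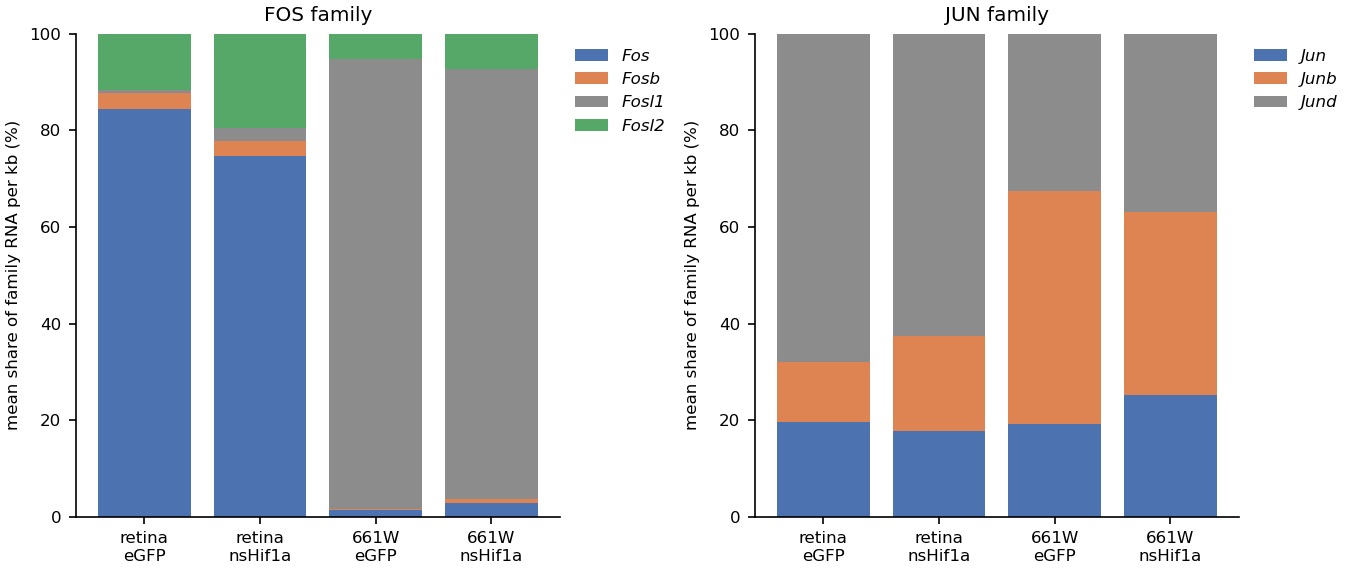
Mean share of each gene in the RNA of its family, in percent of CPM per kilobase of exon, for the 4 groups (bars stacked to 100%, 5 libraries per retinal group and 4 per cell group). Fos fills most of the retinal FOS bars and Fosl1 most of the cell bars, and the Junb segment is taller in the AAV::nsHif1a retina (19.6%) than in the AAV::eGFP retina (12.6%).

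In the AAV::nsHif1a retina, Fosl2, Fosb, Junb, Ier3 and Gem rose and no member fell. A gene counted as called where limma gave an adjusted p-value below 0.05 together with a log2 fold change (log2FC) of more than 0.5 in size. These 5 of the 9 members tested compare with 1.08% of the 18859 genes tested that were called higher. Jund rose by less than the fold threshold, which makes 6 of 9 at an adjusted p-value under 0.05, against 3.31% of all genes tested that rose and 2.47% that fell at that threshold. At an unadjusted p-value under 0.05, 7 of the 9 differed, against 21.7% of all genes tested. For 5 of the 9 members every AAV::nsHif1a library lay above every AAV::eGFP library, against 3.25% of all genes tested. The median log2FC of the 9 was 0.50, and that of all genes tested was 0.00. The members were chosen with earlier results of these data known, so these shares are a description.

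Fosl2 encodes FRA2, a FOS family protein without a strong activation domain (ENSMUSG00000029135.11, chr5:32292707-32315186 of GRCm39, plus strand). Its level was 9.25, 10.1, 11.1, 14.1 and 14.5 CPM in the AAV::eGFP libraries 1 to 5 and 17.4, 31.3, 28.8, 32.3 and 36.6 CPM in the AAV::nsHif1a libraries. The groups did not overlap, and AAV::nsHif1a replicate 1 stood well below the other 4 of its group. The log2FC was 1.27 (SE 0.19, adjusted p-value 0.0026 from limma), the largest among the members tested in the retina, and 1.58 (adjusted p-value 0.041 from limma) within the libraries with Xist counts. The libraries are of whole retina, so more Fosl2 RNA per cell and more cells that carry it cannot be told apart, which holds for every retinal result here. The share of Fosl2 in FOS family RNA per kilobase was 19.5% ± 4.13 (SD, n = 5) with AAV::nsHif1a, against 11.7% with AAV::eGFP. These shares overlapped, at 12.8 to 23.4% and 5.38 to 15.9%, and they also depend on Fos, which varied widely among the controls.

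Fosb encodes a FOS protein known for the stable splice form ΔFOSB of repeatedly stimulated neurons, which these gene counts do not separate (ENSMUSG00000003545.4, chr7:19036621-19043976, minus strand). It was rare in the retina, with 25 to 30 counts per AAV::eGFP library and 32 to 55 per AAV::nsHif1a library. The levels were 1.91, 1.74, 1.86, 1.65 and 2.03 CPM with AAV::eGFP and 2.40, 2.71, 2.84, 2.45 and 3.53 CPM with AAV::nsHif1a. The groups did not overlap. Fosb rose with a log2FC of 0.56 (SE 0.15), but its adjusted p-value of 0.044 from limma was close to the threshold, and it was lost in 19 of 21 alternatives, the libraries with Xist counts among them (log2FC 0.59, adjusted p-value 0.23). Leaving out any library except AAV::nsHif1a replicate 1 also ended the call, with log2FC between 0.51 and 0.61.

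Fosl1 encodes FRA1, the FOS family protein that ERK signalling stabilizes in many proliferating cells (ENSMUSG00000024912.7, chr19:5497575-5505974, plus strand). It had 2, 1, 5, 2 and 0 counts in the AAV::eGFP retinas and 3, 16, 12, 16 and 13 counts in the AAV::nsHif1a retinas, or 0.132 ± 0.116 and 0.802 ± 0.340 CPM (SD, n = 5). The 4 libraries with over 10 counts are AAV::nsHif1a replicates 2 to 5, and replicate 1 lay within the AAV::eGFP range. Fosl1 did not pass the filter on low counts, so it has no result in the main test. Without the filter, its log2FC was 2.65 with an adjusted p-value of 0.050 from limma, just above the threshold, and 2.51 with an adjusted p-value of 0.026 from edgeR's quasi-likelihood test. Fitted fold changes at such counts depend on the small constant added to each count. Since 3 counts correspond to 0.186 to 0.233 CPM in these libraries, a limit for counting error only, all AAV::eGFP levels but that of replicate 3 lay under it.

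In the JUN family, Junb moved most. Junb encodes a JUN protein that binds DNA well but activates many targets less than JUN (ENSMUSG00000052837.8, chr8:85701113-85705359, minus strand). It was measured at 14.7, 22.6, 22.4, 27.3 and 23.6 CPM with AAV::eGFP and at 31.3, 48.4, 44.5, 46.4 and 58.6 CPM with AAV::nsHif1a. All 5 AAV::nsHif1a libraries lay above the AAV::eGFP range, and replicate 1 was again the lowest of them. The log2FC was 1.05 (SE 0.16, adjusted p-value 0.0031 from limma) and 1.29 (adjusted p-value 0.041) within the libraries with Xist counts. The share of Junb in JUN family RNA per kilobase was 12.6% ± 2.43 with AAV::eGFP and 19.6% ± 2.06 with AAV::nsHif1a (SD, n = 5).

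Jund, the JUN gene that most cells express steadily (ENSMUSG00000071076.9, chr8:71151599-71153265, plus strand), showed a small rise. Its levels were 82.8, 90.4, 77.3, 77.3 and 90.3 CPM with AAV::eGFP and 88.3, 101, 99.2, 108 and 108 CPM with AAV::nsHif1a, where replicate 1 overlapped the controls. The log2FC was 0.26 (SE 0.06, adjusted p-value 0.031 from limma). This p-value rose over the threshold in 13 of 22 alternatives, to 0.19 within the libraries with Xist counts and to between 0.051 and 0.080 without AAV::eGFP replicate 1, 3 or 4 or AAV::nsHif1a replicate 2, 3, 4 or 5. Of the 50-base words in Jund transcripts, 5.01% also occur in the predicted gene Gm75675, so a small part of its reads may be split or lost. The other 9 members share no such word with another gene.

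Jun, the partner that completes the classic AP-1 dimer and a known marker of neuronal injury (ENSMUSG00000052684.6, chr4:94937271-94940459, minus strand), was not past the test in the retina. It was measured at 43.3, 49.2, 42.8, 50.6 and 43.7 CPM with AAV::eGFP and at 46.6, 52.8, 52.9, 50.5 and 75.4 CPM with AAV::nsHif1a. The groups overlapped, and AAV::nsHif1a replicate 5 stood above the rest. The log2FC was 0.24 (SE 0.10, 95% limits 0.03 and 0.45, adjusted p-value 0.17 from limma). Jun passed in none of 22 alternatives, the libraries with Xist counts among them, with log2FC of 0.16 to 0.31.

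Ier3 had the smallest adjusted p-value of the members. It encodes a stress-induced regulator of cell survival (ENSMUSG00000003541.7, chr17:36132568-36133815, plus strand). Its levels were 26.5, 34.8, 28.7, 29.3 and 27.03 CPM with AAV::eGFP and 41.2, 47.9, 48.3, 53.0 and 57.3 CPM with AAV::nsHif1a, with no overlap. The log2FC was 0.76 (SE 0.09, adjusted p-value 6.3e-04 from limma), and Ier3 ranked 35 of the 18859 genes tested by p-value. Within the libraries with Xist counts the log2FC was 0.68 (adjusted p-value 0.045).

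Gem encodes a small GTP-binding protein that restrains voltage-gated calcium channels (ENSMUSG00000028214.14, chr4:11704343-11714993, plus strand). It was at 26.5, 27.4, 25.7, 22.1 and 25.9 CPM with AAV::eGFP and at 34.3, 35.7, 34.05, 35.7 and 43.0 CPM with AAV::nsHif1a. The groups did not overlap. The log2FC of 0.50 (SE 0.07, adjusted p-value 0.0022 from limma) lay just past the fold threshold and under it in 11 of 22 alternatives, from 0.41, which ends the call there, although the adjusted p-value stayed under 0.05 in 21 of 22. Within the libraries with Xist counts the log2FC was 0.42 with an adjusted p-value of 0.058.

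**Figure D2:**
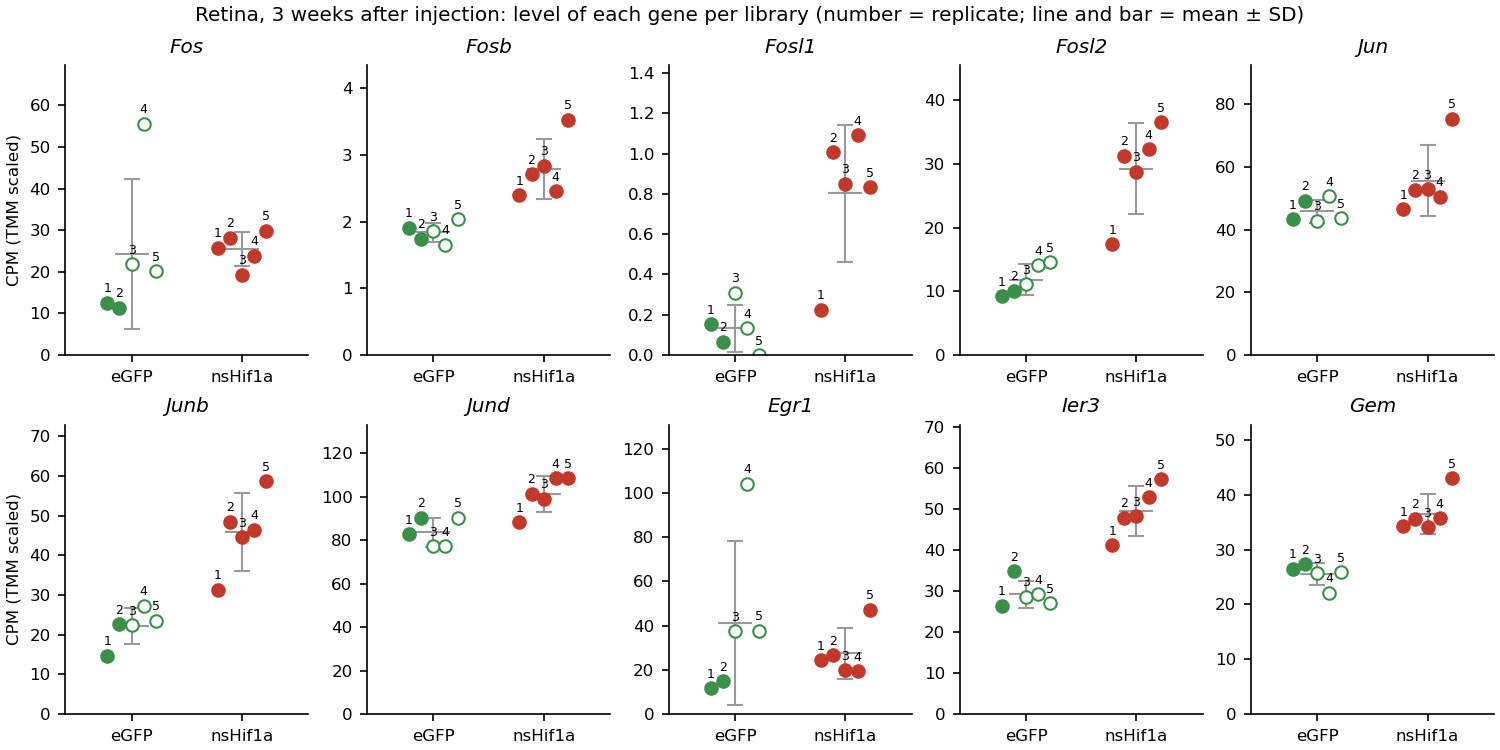
Level of the 10 genes in each retinal library in CPM (vertical axes from 0, a scale per gene), with AAV::eGFP in green and AAV::nsHif1a in red, the replicate number at each point, open points for the 3 libraries with Y chromosome counts, and grey lines for mean ± SD (n = 5). Fosb, Fosl2, Junb, Ier3 and Gem show separate groups, and for Fos and Egr1 AAV::eGFP replicate 4 lies far above the others.

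Fos and Egr1, the best known immediate early genes of the set, varied more among the AAV::eGFP retinas than the other members tested. Like Jun, they did not pass the test there. Fos (ENSMUSG00000021250.14, chr12:85520658-85524047, plus strand) was at 12.5, 11.4, 21.8, 55.6 and 20.2 CPM with AAV::eGFP and at 25.8, 28.2, 19.3, 23.9 and 29.8 CPM with AAV::nsHif1a. Egr1, which encodes a zinc finger factor that binds a GC-rich site (ENSMUSG00000038418.9), was at 11.8, 14.8, 37.4, 104 and 37.7 CPM and at 24.3, 26.6, 19.9, 19.4 and 47.2 CPM. For both genes the spread lay in the controls, where replicate 4 was the highest of all 10 libraries and replicates 1 and 2, the controls with Xist counts, were the lowest. The log2FC was 0.25 (SE 0.33, 95% limits -0.47 and 0.97, adjusted p-value 0.71 from limma) for Fos and -0.34 (SE 0.49, 95% limits -1.41 and 0.73, adjusted p-value 0.73) for Egr1, and both pairs of limits reach well to either side of 0.

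Within the libraries with Xist counts, all 5 AAV::nsHif1a retinas had more Fos and more Egr1 than both controls. The log2FC there was 1.06 for Fos (adjusted p-value 0.041 from limma) and 0.91 for Egr1 (adjusted p-value 0.19), each against 2 control libraries only. With the Xist class as a covariate over all 10 libraries, the values were 1.06 (adjusted p-value 0.25) and 0.91 (adjusted p-value 0.44). This is the same contrast against the same 2 controls, since every AAV::nsHif1a library carried Xist counts. The other controls add only to the estimate of the spread. Leaving out AAV::eGFP replicate 4 alone gave 0.68 for Fos (adjusted p-value 0.094) and 0.25 for Egr1 (adjusted p-value 0.78), and leaving out AAV::eGFP replicate 1 or 2 brought Fos to 0.00. Over the 10 retinal libraries, the deviations of Fos and Egr1 from their group means had a Pearson r of 0.94 and a Spearman rho of 0.89, and r was 0.90 without the 2 libraries farthest from the median of Fos. That r is a description, since both genes were read from the same libraries. The summed markers of the retinal pigment epithelium split the controls alike, at 61.5 and 43.0 CPM in AAV::eGFP replicates 1 and 2 and at 691, 294 and 217 CPM in replicates 3, 4 and 5. The control with the highest sum, replicate 3, was not the one with the most Fos and Egr1. In AAV::nsHif1a replicates 1 to 5 the sums were 65.5, 46.2, 357, 811 and 175 CPM. There, replicates 3 and 4 had the highest sums and the least Fos and Egr1. Their part in the Fos and Egr1 values was not tested.

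**Figure D3:**
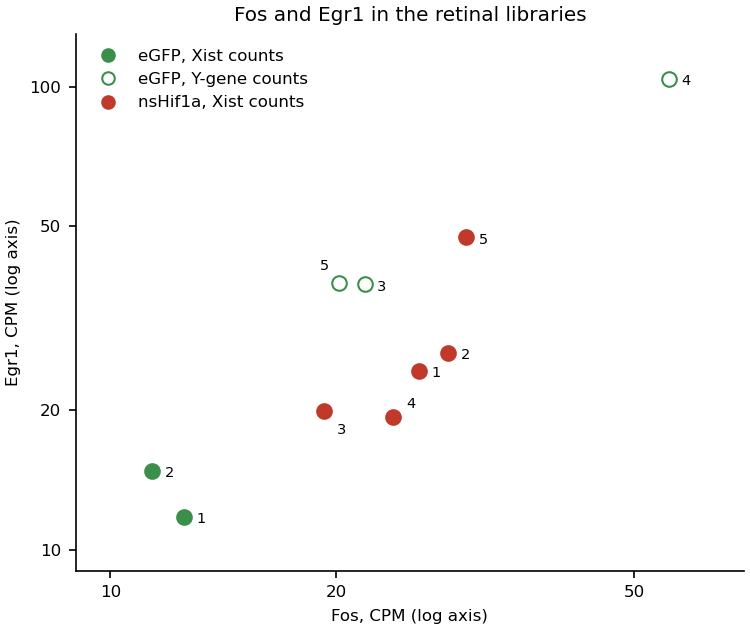
Egr1 against Fos in CPM for the 10 retinal libraries (both axes logarithmic), with the replicate number beside each point, AAV::eGFP in green, AAV::nsHif1a in red, and open points for libraries with Y chromosome counts. AAV::eGFP replicates 1 and 2 lie at the lower left (Fos 12.5 and 11.4 CPM) and AAV::eGFP replicate 4 at the upper right (Fos 55.6, Egr1 104 CPM).

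Whether levels of other cell types and of the HIF response go with these values over all libraries was not tested. The AAV::nsHif1a retina with the least Fosl2, Fosb, Fosl1, Junb, Jun, Jund and Ier3 of its group, replicate 1, also had the lowest sum of HIF targets (998 CPM, against 1250 to 1549 CPM in the other 4). Its microglial marker sum was the lowest of the group as well, at 46.3 CPM against 70.4 to 129 CPM, and the AAV::eGFP range was 26.1 to 138 CPM. AAV::eGFP replicate 2, at 138 CPM the highest in microglial marker sum, had 10.1 CPM of Fosl2 and 22.6 CPM of Junb. Both levels lay below every AAV::nsHif1a library. With that sum as a covariate, an alternative added once the data had been seen, the log2FC was 1.22 for Fosl2 (adjusted p-value 0.0089), 0.99 for Junb (0.011), 0.64 for Ier3 (0.0010) and 0.43 for Gem (0.0043) in limma, so that Gem lay under the fold threshold. With the share of γ-crystallin genes of the lens as a covariate, it was 1.41 for Fosl2 (adjusted p-value 0.0034), 1.16 for Junb (0.0055), 0.77 for Ier3 (0.0020) and 0.58 for Gem (0.0020). The summed lens markers were 634 to 2817 CPM with AAV::eGFP and 920 to 18956 CPM with AAV::nsHif1a, and the summed rod markers 43825 to 48168 CPM and 33931 to 45548 CPM. Which cells of the retina carried the added RNA was not tested.

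Junb and Fosl2 also varied together within groups, with r of 0.88 and rho of 0.83 over the 10 libraries and r of 0.69 without the 2 farthest. Among 14351 protein-coding genes compared, those most like Fosl2 in their deviations from the group means were Wdr76 (r = 0.98), Alox5 (r = 0.95) and Stc2 (r = 0.94), and those most like Junb were Mia3 (r = 0.95), Hacd1 (r = 0.95) and Casp8ap2 (r = 0.94). For Fosb they were Gm11992 (r = 0.96), Mastl (r = 0.95) and Prph (r = 0.94), and for Jun Muc2 (r = 0.96), Eef2kmt (r = 0.95) and Tmem252 (r = 0.93). These genes were picked for the highest r among all those compared, and no chance level was computed. The values of r describe these 10 libraries only.

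The 250 bases before the annotated start of transcription are shown for Fosl2, Junb, Ier3 and Fosb, which are 4 of the 5 members called in the retina, and were searched for the HIF core motif and others. They were read 5′ to 3′ on the strand of the gene from the GRCm39 assembly, at chr5:32292457-32292706 (plus), chr8:85705360-85705597 (minus), chr17:36132318-36132567 (plus) and chr7:19043977-19044226 (minus). The Junb window is 12 bases shorter because bases of its own exon were left out. Capitals mark the HIF core motifs ACGTG and GCGTG and the motif TGACG, which is the first part of the CRE site TGACGTCA, on either strand.
Fosl2: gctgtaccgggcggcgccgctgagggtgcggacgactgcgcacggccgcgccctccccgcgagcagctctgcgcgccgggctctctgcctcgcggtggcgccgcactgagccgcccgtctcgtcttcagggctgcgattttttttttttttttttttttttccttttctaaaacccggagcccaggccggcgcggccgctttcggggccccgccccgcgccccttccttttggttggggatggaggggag
Junb: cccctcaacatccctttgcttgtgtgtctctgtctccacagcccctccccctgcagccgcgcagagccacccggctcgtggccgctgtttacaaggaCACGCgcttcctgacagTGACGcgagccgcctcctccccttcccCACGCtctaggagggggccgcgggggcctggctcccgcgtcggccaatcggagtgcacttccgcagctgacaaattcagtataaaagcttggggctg
Ier3: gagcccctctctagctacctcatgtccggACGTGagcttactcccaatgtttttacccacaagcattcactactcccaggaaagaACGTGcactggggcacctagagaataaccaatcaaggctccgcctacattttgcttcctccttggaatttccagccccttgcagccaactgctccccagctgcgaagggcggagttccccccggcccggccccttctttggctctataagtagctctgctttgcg
Fosb: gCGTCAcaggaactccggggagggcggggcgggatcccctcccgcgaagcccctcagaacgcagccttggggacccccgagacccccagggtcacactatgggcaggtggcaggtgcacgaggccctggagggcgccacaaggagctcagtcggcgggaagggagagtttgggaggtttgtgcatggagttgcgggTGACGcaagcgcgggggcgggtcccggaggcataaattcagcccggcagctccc
The Ier3 window holds ACGTG at -221 to -217 and -165 to -161, counted back from the start, a motif that occurs in 16.996% of the 21770 promoters of protein-coding genes. The Junb window holds GCGTG at -153 to -149 and -109 to -105, read as CACGC on the printed strand, a motif of 31.2% of promoters. TGACG, found in 18.03% of promoters, occurs at -136 in Junb and at -249 and -54 in Fosb, and the EGR motif GCGGGGGCG (2.39% of promoters) at -44 in Fosb. The Fosl2 window holds none of the motifs searched, nor does that of Gem, the other member called, which is not shown. A HIF core motif also occurs in the window of Fos (GCGTG at -223 to -219), which did not pass the test in the retina. The AP-1 motif TGACTCA (4.02% of promoters) and the CArG box (1.40%) were in no window of the 10 members, and the CRE site TGACGTCA (1.69%) was in that of Jund. Motifs were searched on both strands, a match is a match of letters, and no match says nothing about sites elsewhere.

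In 661W cells the pattern was different. Fosb and Jun were called higher, 2 of the 10 members, against 1.21% of the 15962 genes tested. With Fosl2, which rose by less than the fold threshold, 3 of 10 had an adjusted p-value under 0.05, against 2.06% of all genes tested that rose and 0.426% that fell, and 7 of 10 had an unadjusted p-value under 0.05, against 20.7%. For 7 of the 10, all but Fosl1, Junb and Ier3, every nsHif1a library lay above every eGFP library, against 7.51% of all genes tested. The median log2FC of the 10 was 0.52, and that of all genes tested was 0.00.

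Fosb was at 2.22, 1.75, 3.23 and 1.88 CPM in eGFP libraries 1 to 4 and at 5.63, 5.13, 4.21 and 6.64 CPM in nsHif1a libraries 1 to 4. The groups did not overlap. The log2FC was 1.25 (SE 0.22, adjusted p-value 0.023 from limma), the largest of the members in the cells. Jun was at 69.8, 66.8, 92.3 and 92.6 CPM with eGFP and at 133, 133, 110 and 123 CPM with nsHif1a, also without overlap. Its log2FC was 0.65 (SE 0.13, adjusted p-value 0.036). Fosl2 was at 60.5, 56.8, 64.3 and 63.4 CPM with eGFP and at 71.2, 71.7, 77.5 and 75.0 CPM with nsHif1a, with a small log2FC of 0.27 (SE 0.06, adjusted p-value 0.043).

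These calls rest on few libraries. When the replicate number entered the limma fit as a block, the adjusted p-value was 0.071 for Fosb (log2FC 1.23) and 0.070 for Jun (log2FC 0.61), so both calls were lost, while Fosl2 kept 0.039. All 3 were lost without eGFP replicate 1 or without eGFP replicate 2, with adjusted p-values between 0.066 and 0.0998, and Fosl2 was also lost with no filter on low counts (0.057). Each of the 3 stayed past the adjusted p-value in the other 16 of 19 alternatives. The fit with replicates 1 and 2 against 3 and 4 as covariate was among these. With replicates 3 and 4 alone, however, Jun had a log2FC of 0.33, under the fold threshold.

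Fos, Jund, Egr1 and Gem were higher in every nsHif1a library but missed the adjusted threshold. Of 19 alternatives, 12 put Egr1 past it, 8 Gem, 6 Jund and 5 Fos. The fit with replicates 1 and 2 against 3 and 4 as covariate put each of these genes past it. Their values split by replicate number. Fos was at 3.06, 3.76, 3.59 and 3.30 CPM with eGFP and at 7.15, 7.45, 4.39 and 4.38 CPM with nsHif1a (log2FC 0.74, SE 0.20, adjusted p-value 0.084 from limma). Jund was at 71.8, 71.8, 68.7 and 70.04 CPM and at 116, 115, 76.6 and 79.2 CPM (log2FC 0.44, SE 0.12, adjusted p-value 0.090). Gem was at 25.9, 26.6, 31.2 and 28.8 CPM and at 53.1, 47.0, 35.1 and 35.5 CPM (log2FC 0.59, SE 0.13, adjusted p-value 0.051). In all 3, nsHif1a replicates 1 and 2 stood well above replicates 3 and 4. Egr1 was at 22.2, 28.7, 37.8 and 35.7 CPM and at 48.3, 49.5, 44.3 and 50.7 CPM (log2FC 0.66, SE 0.16, adjusted p-value 0.061). Here the split lay in the eGFP libraries, with replicates 1 and 2 the lower.

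Fosl1, Junb and Ier3 had overlapping groups. Fosl1, the main FOS gene of these cells, was at 178, 189, 249 and 237 CPM with eGFP and at 131, 127, 257 and 253 CPM with nsHif1a, so that replicates 1 and 2 were below the whole eGFP range and replicates 3 and 4 above it. The log2FC was -0.26 (SE 0.23, 95% limits -0.77 and 0.26, adjusted p-value 0.57 from limma). Junb was at 137, 145, 159 and 155 CPM and at 135, 133, 141 and 146 CPM (log2FC -0.11, SE 0.06, 95% limits -0.24 and 0.03, adjusted p-value 0.34). Ier3 was at 63.9, 70.1, 78.6 and 72.6 CPM and at 66.1, 67.9, 86.0 and 86.8 CPM (log2FC 0.09, SE 0.10, 95% limits -0.14 and 0.31, adjusted p-value 0.67).

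Taken within replicates 1 and 2 and within replicates 3 and 4, the log2FC was 1.10 and 0.34 for Fos, 0.96 and 0.33 for Jun, 0.68 and 0.17 for Jund, 0.95 and 0.37 for Egr1 and 0.93 and 0.23 for Gem. For these 5 genes the value in the first pair was more than that in the second, and for Fosl1 the sign differed (-0.50 and 0.07). For Fosb (1.43 and 1.04), Fosl2 (0.28 and 0.26), Junb (-0.07 and -0.13) and Ier3 (-0.00 and 0.19) the values lay closer. The labels name no batch that would set these pairs apart, so the difference between them was not tested. Hif1a RNA, which includes the transfected form, was at 1222 and 1242 CPM in nsHif1a replicates 1 and 2 and at 1954 and 1825 CPM in replicates 3 and 4, and the sum of the 6 HIF targets was 526 and 511 CPM against 652 and 595 CPM. In the eGFP libraries the sum of HIF targets was also higher in replicates 3 and 4, at 333 and 346 CPM against 303 and 312 CPM in replicates 1 and 2. Whether these levels are tied to the split in the members was not tested.

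**Figure D4:**
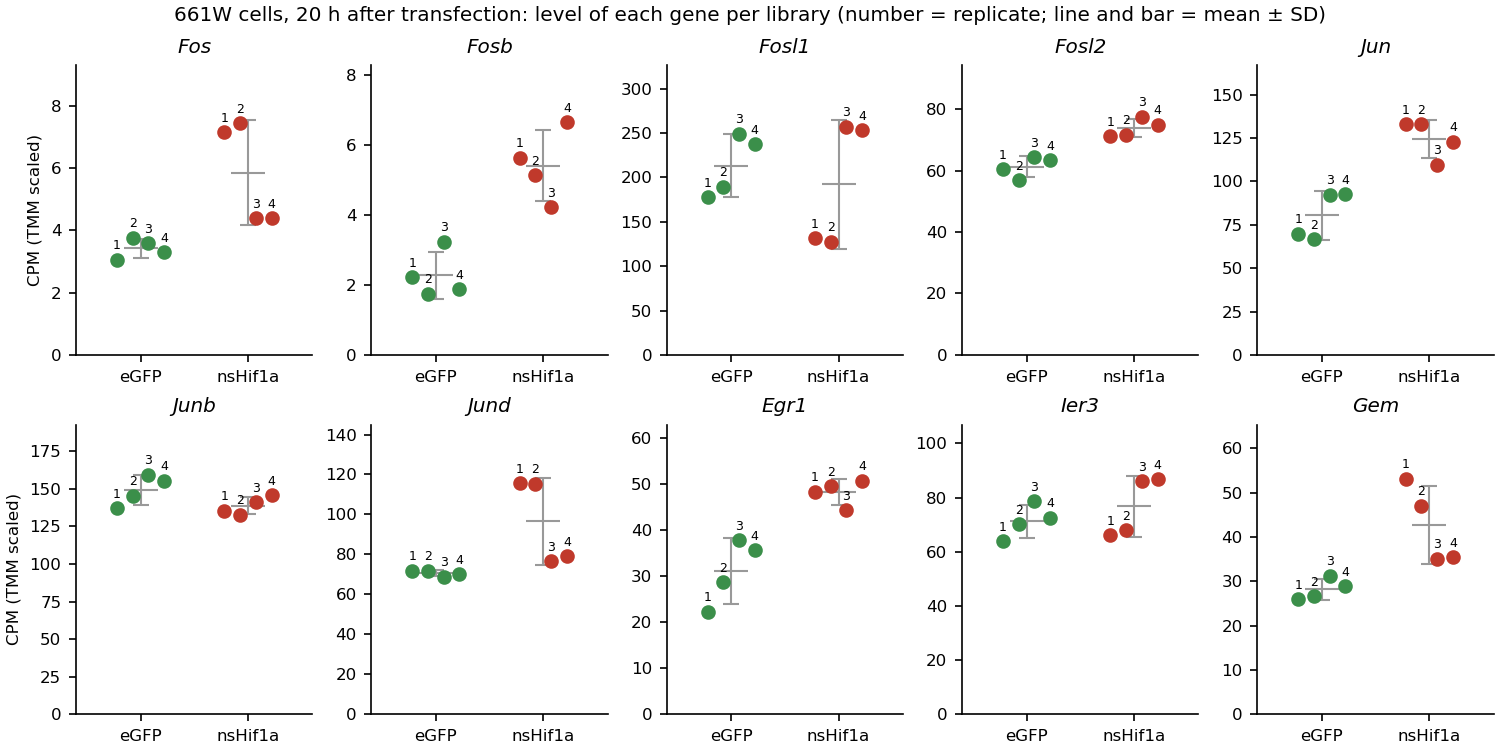
Level of the 10 genes in each 661W library in CPM (vertical axes from 0, a scale per gene), eGFP in green and nsHif1a in red, the replicate number at each point and grey lines for mean ± SD (n = 4). In Fos, Jund and Gem nsHif1a replicates 1 and 2 stand above 3 and 4, and in Fosl1 they stand below.

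Across the members in the cells, deviations from the group means followed the same split, which the 8 libraries share. Fosl1 and Ier3 had r of 0.97 (rho 0.95), Fos and Jund 0.94 (rho 0.86), Fos and Gem 0.88 (rho 0.88), and Fosl1 and Jund -0.95 (rho -0.95). Without the 2 farthest libraries, these r were 0.97, 0.89, 0.87 and -0.91. Among 12050 protein-coding genes, those most like Fosl2 were Nf1, Lmbrd2 and Tmed3 (r = 0.99 each), those most like Fosb Kcnn1 (r = 0.97), Dcp1b (r = 0.96) and Tmem87a (r = 0.95), those most like Junb Csrnp1 (r = 0.99), Angptl6 (r = 0.98) and Zfp26 (r = 0.98), and those most like Jun Clic4, Pnp and Map2 (r = 0.99 each). They were picked for the highest r over 8 libraries that share the split, and no chance level was computed.

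The effects of nsHif1a in retina and cells were compared in a joint limma fit of all 18 libraries. The effect was larger in the retina for 3 of the 10 members, Junb, Fosl2 and Ier3, against 1.08% of the 20999 genes tested, and larger in the cells for none, against 1.25%. At an unadjusted p-value under 0.05, 6 of the 10 differed, against 16.8% of all genes tested, with Fosl1 also larger in the retina and Fosb and Jun larger in the cells. Retina and cells differ in the cell type, the promoter, the vector and the time after delivery, which cannot be told apart here.

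The difference was 1.13 on the log2 scale for Junb (SE 0.18, adjusted p-value 0.0037 from limma), where the retina had 1.05 and the cells -0.11. For Fosl2 it was 0.99 (SE 0.20, adjusted p-value 0.017), from 1.27 and 0.27, and for Ier3 0.62 (SE 0.14, adjusted p-value 0.027), from 0.76 and 0.09. The calls for Junb and Fosl2 held in all 24 alternatives. That for Ier3 was lost without AAV::eGFP replicate 4 (adjusted p-value 0.053), without AAV::eGFP replicate 5 (0.059), without the filter (0.084) and with the retinal libraries with Xist counts alone (0.17). In the eGFP groups the levels of these 3 genes per kilobase were all higher in the cells than in the retina, at 59.9 against 9.58 for Junb, 5.63 against 1.17 for Fosl2 and 59.8 against 26.5 for Ier3.

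For Fosb the difference was -0.70 (SE 0.27, 95% limits -1.27 and -0.13, adjusted p-value 0.19 from limma) and for Jun -0.40 (SE 0.16, adjusted p-value 0.22). For Gem it was -0.03 (SE 0.15, 95% limits -0.34 and 0.28) and for Jund -0.10 (SE 0.14, 95% limits -0.39 and 0.18). For Fos (-0.41, SE 0.72), Egr1 (-1.02, SE 0.60) and Fosl1 (2.87, SE 1.31, adjusted p-value 0.27) the errors were too wide to tell, and the value for Fosl1 rests on 0 to 16 counts per retinal library.

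**Figure D5:**
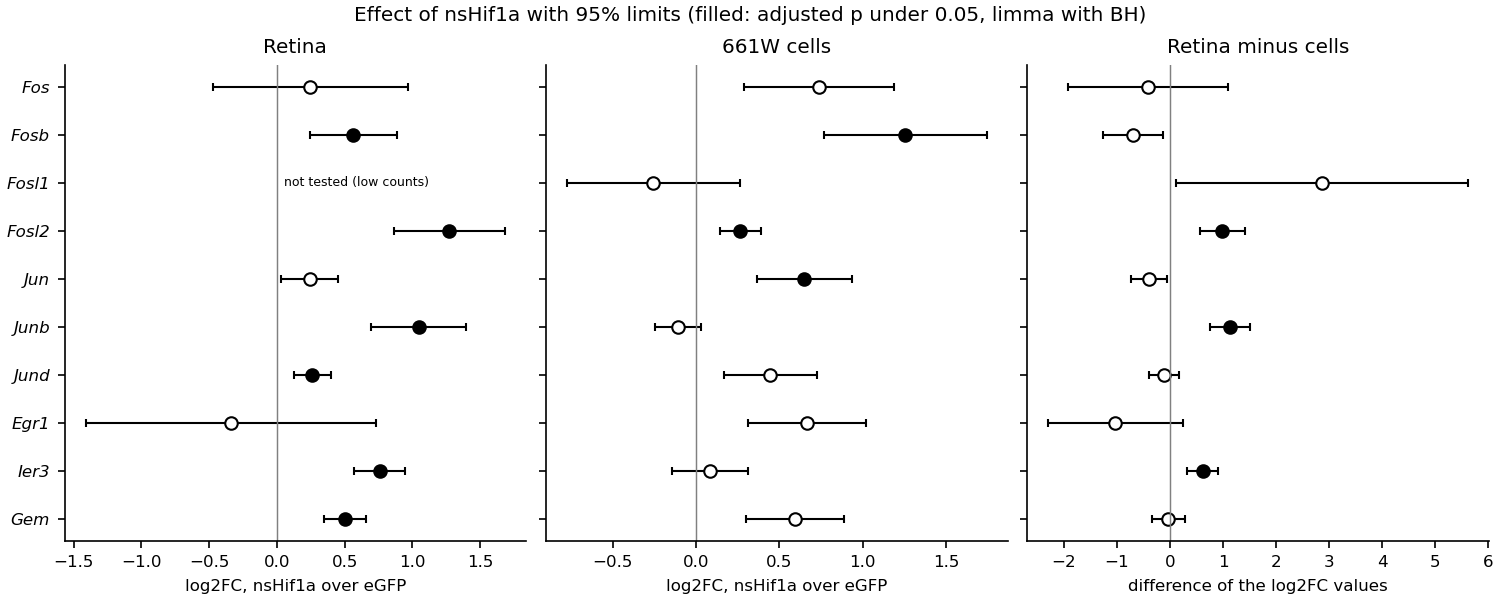
log2FC of nsHif1a over eGFP in the retina (left) and in 661W cells (middle), and the retinal minus the cell effect (right), for the 10 genes, with 95% limits, filled where the adjusted p-value was under 0.05 (limma, BH). Junb, Fosl2 and Ier3 are filled in the right panel at 1.13, 0.99 and 0.62, and Fosl1 has no retinal value.

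Genes around AP-1 were described from lists chosen with the members. Their counts stand beside shares over all genes tested of 3.31% that rose (adjusted p-value under 0.05) and 49.4% with a log2FC above 0 in the retina, and of 2.06% and 49.7% in the cells. Of the 10 proteins listed that pair with FOS or JUN proteins or compete with them, 7 were tested in the retina and 4 rose (against 3.31% of all genes), Atf3 (log2FC 1.69), Maff (1.39), Jdp2 (0.36) and Atf7 (0.22). Maff, a small MAF protein without an activation domain, went from 1.70 ± 0.364 to 4.45 ± 1.28 CPM (SD, n = 5, adjusted p-value 0.0056 from limma). Jdp2, a repressor that pairs with JUN, went from 15.01 ± 0.953 to 19.6 ± 2.71 CPM. In the cells 8 were tested and Atf3 alone rose (log2FC 1.84; 2.06% of all genes rose), while Maff was at 78.2 ± 5.05 and 85.2 ± 16.99 CPM (SD, n = 4, log2FC 0.09, adjusted p-value 0.71). The retinal calls for Atf3 and Maff were lost within the libraries with Xist counts (adjusted p-values 0.12 and 0.15).

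Of 17 MAP kinases, their activators and the SRF, ELK and CREB factors that drive immediate early genes, Mapk3 alone rose in the retina (log2FC 0.19, adjusted p-value 0.032 from limma), and none of 16 tested in the cells passed the test. At an unadjusted p-value under 0.05 in the retina, Mapk3, Mapk8, Mapk14, Map2k1 and Creb1 were higher and Mapk9 and Elk4 lower (21.7% of all genes tested differed). In the cells 4 of 16 differed, against 20.7% of all genes tested, with Map2k1 higher and Map2k2, Map2k7 and Elk3 lower. Of 15 feedback inhibitors of MAP kinases (the Dusp, Spry and Spred genes), 14 were tested in the retina and all 14 lay above 0 (against 49.4% of all genes), from 0.02 to 0.39 with a median log2FC of 0.17, but Dusp16 alone passed the test (0.25). In the cells 6 of 15 lay above 0 (against 49.7%), and Dusp16 again alone passed it (0.42).

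Of 25 other immediate early genes, 23 were tested in the retina and 3 rose (against 3.31% of all genes), Gadd45b (log2FC 0.67, adjusted p-value 0.0067 from limma), Klf10 (0.40) and Per1 (0.28). Gadd45b, a stress sensor upstream of p38 and JNK, went from 7.40 ± 1.02 to 11.7 ± 1.51 CPM (SD, n = 5). In the cells 24 were tested and 2 rose (against 2.06%), Nr4a3, an orphan nuclear receptor (log2FC 1.88, adjusted p-value 0.041), and Homer1, a scaffold of the synapse (0.74, adjusted p-value 0.0065). Nr4a3 was near the detection limit, at 0.521 ± 0.366 and 1.72 ± 0.344 CPM (SD, n = 4), and with the replicate number as a block its adjusted p-value was 0.12. It passed the filter on low counts only through the nsHif1a libraries, with 24 to 39 counts there against 4 to 14 with eGFP.

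Of 20 genes known as targets of AP-1, 14 were tested in the retina. Of these 13 lay above 0 (against 49.4% of all genes), the median log2FC was 0.24, and 2 rose (against 3.31%), Lif (1.48, adjusted p-value 0.0058 from limma) and the cell cycle gene Ccnd1 (0.34, adjusted p-value 0.0075). Ccnd1 had a log2FC of -0.03 in the cells and differed between the experiments by 0.40 (adjusted p-value 0.017). Lif, a cytokine that injured retinas release to protect photoreceptors, went from 1.30 ± 0.287 to 3.60 ± 0.974 CPM (SD, n = 5). In the cells 19 were tested, 5 lay above 0 (against 49.7% of all genes) with a median log2FC of -0.18, and the cytokine gene Il6 alone rose, from 8.16 ± 0.738 to 20.2 ± 5.88 CPM (SD, n = 4, log2FC 1.27, adjusted p-value 0.014). The Il6 call was lost without eGFP replicate 1 or 2 (adjusted p-values 0.055 and 0.053). The retinal calls for Lif and Gadd45b were lost within the libraries with Xist counts (adjusted p-value 0.12 each).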

How the data were processed

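RNA was measured by bulk RNA-seq in 10 mouse retinas and 8 libraries of 661W cells, grouped by their labels. The authors made stranded libraries, used Rsubread to align the paired-end reads to GRCm39, and assigned them to genes on the antisense strand with featureCounts and gencode M36 (basic). The values that the authors deposited are whole-number counts with no normalization. Genes on opposite strands were thus counted apart, and near-identical genes can lose or split reads.

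From the deposited counts, each experiment was fitted alone with filterByExpr (minimum count 10), TMM in edgeR 4.0.16, and limma 3.58.1 (voomWithQualityWeights, lmFit, eBayes; R 4.3.3), with Benjamini-Hochberg (BH) adjustment over all genes tested. The difference of effects was a contrast over all 18 libraries, where genes were called on the adjusted p-value alone. The steps were tested on simulated data. The 10 members and the lists were chosen with earlier results of these data known. All 10 members are named, as are the list genes called (at most 6 per list and experiment) and the 3 protein-coding genes of at least 10 mean counts most like Fosl2, Fosb, Junb and Jun. List genes named that were past the adjusted p-value alone were added after their values were seen. Coordinates, exon lengths and shared 50-base words come from gencode M39 of GRCm39, which held 78168 of the 78239 genes. Counting error alone sets a limit of 3 counts, or 0.168 to 0.233 CPM. The alternatives tried were DESeq2 1.42.0 and the quasi-likelihood test of edgeR, other weights, size factors, filters and thresholds, a block for the replicate number, covariates for the Xist class, lens and microglia, the pairs of cell replicates and the omission of each library.

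Whether the replicate numbers pair the libraries was checked by the correlation across genes of the deviations from the group means. In the cells, libraries of the same number had r of 0.24, 0.23, 0.26 and 0.27. Libraries of different number within the pairs 1 and 2 or 3 and 4 had r of 0.29, 0.25, 0.25 and 0.25. These values show no pairing by number, which comes from the titles of the samples, beyond those pairs. Libraries of different pairs had r between -0.27 and -0.23, so both groups of the cells share the split between the pairs. The main fit of the cells took neither the numbers nor this split into account. The block for the replicate number and the pairs of replicates as covariate are alternatives. In the retina r of the same number was -0.11, 0.13, 0.14, -0.02 and -0.15, so the numbers were not taken as pairs there either. No protein sequences were used.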

Additional observations from a re-analysis of the deposited data

Results flagged for a closer look

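Over 54 groups of 4 or 5 libraries examined for a library far from the others, which chance flags in about 1 of 20 groups, 5 stood out, all in the retina. AAV::eGFP replicate 4 was high in Fos (55.6 CPM) and in Egr1 (104 CPM). AAV::nsHif1a replicate 5 was high in Jun (75.4 CPM), Egr1 (47.2 CPM) and Gem (43.0 CPM). No group of the cells met this criterion.

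The effect of nsHif1a differed between retina and cells (joint limma fit, BH adjustment) by 0.99 on the log2 scale for Fosl2, 1.13 for Junb, 0.62 for Ier3, 1.22 for Lif (adjusted p-value 0.027) and 0.40 for Ccnd1 (adjusted p-value 0.017), all larger in the retina, and by -0.80 for Homer1 (adjusted p-value 0.011), larger in the cells. The difference for Lif was lost without the filter, without AAV::eGFP replicate 3 or 4, without AAV::nsHif1a replicate 3 and within the retinal libraries with Xist counts, with adjusted p-values between 0.050 and 0.17.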

How the results depend on the processing

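Fosl2, Junb and Ier3 in the retina, and the differences between retina and cells for Fosl2, Junb and Homer1, kept their direction and their side of the threshold in all alternatives run, except that Ier3 does not reach a fold threshold of 1. Fos in the retina was past the threshold with the libraries with Xist counts alone (log2FC 1.06). In the cells, of 19 alternatives, 12 put Egr1 past the threshold, 8 Gem, 6 Jund, 5 Fos, 3 Fosl1 (lower), 1 Junb (lower) and 1 Ier3. DESeq2, the pairs of replicates as covariate, and the omission of nsHif1a replicate 3 or 4 each did so for Fos, Jund, Egr1 and Gem, and the omission of either of those libraries did so for Fosl1, with log2FC of -0.65. Directions turned for values that had not passed. Egr1 in the retina was 0.91 with the Xist class as covariate or with the libraries with Xist counts alone, which rest on the same controls. It was 0.090 with the microglial covariate and between -0.78 and 0.25 with each library left out. Fos there was between -0.0025 and 0.68 with each left out. In the cells, Fosl1 was 0.070 with replicates 3 and 4 alone and between -0.65 and 0.22 with each left out, and Ier3 was -0.0010 with replicates 1 and 2 alone and between -0.064 and 0.27 with each left out. The difference for Fos was 0.41 and that for Egr1 0.25 with the retinal libraries with Xist counts alone, and with each library left out it was between -0.79 and 0.027 for Fos, -0.39 and 0.081 for Jund and -0.29 and 0.14 for Gem.

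The counts of called genes moved as follows, from 203 higher and 172 lower for the retina and from 193 and 10 for the cells. In the retina they were 97 higher with the Xist class as covariate, 64 and 76 with the libraries with Xist counts alone, 111 lower without quality weights, 113 lower with no filter, 92 lower with the crystallin and 84 lower with the microglial covariate, 625 and 466 with no fold threshold, 86 and 37 past a log2FC of 1, and 137 to 313 higher and 82 to 215 lower with each library left out. In the cells they were 332 and 34 with DESeq2, 3 lower with edgeR, 6 lower without quality weights, 16 lower with no filter, 24 lower with a minimum count of 50, 545 and 74 with the pairs of replicates as covariate, 1336 and 648 with replicates 1 and 2 alone, 43 lower with replicates 3 and 4 alone, 329 and 68 with no fold threshold, 72 and 3 past a log2FC of 1, and 82 to 1201 higher and 2 to 682 lower with each library left out, the most without nsHif1a replicate 3 or 4. Genes with a larger effect in the retina (227) were 97 with no filter and 54 with the libraries with Xist counts alone, those with a larger effect in the cells (262) were 160 with the latter, and both moved to between 107 and 1664 and between 141 and 1456 with each left out. Library totals as the only scaling moved the median of all genes by 0.03 or less on the log2 scale but brought the share of retinal calls that were higher to 44.6%, from 57.3% at the adjusted p-value alone. The causes were not tested.

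In the cells, the block for the replicate number left 121 genes called higher and 3 lower, where Fosb and Jun were lost as given above, as was Nr4a3, while Fosl2, Atf3, Homer1 and Il6 stayed past the threshold. In the retina, where the numbers do not pair the libraries, the block gave 153 and 61, with an adjusted p-value of 0.11 for Fosb and 0.058 for Jund. The differences between retina and cells for Fosl2, Junb and Ier3 remained past the threshold with the cell block. Depth limits Fosl1 in the retina, with 0 to 16 counts per library, and Fosb, with 25 to 55.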
